A study of Homo sapiens with 5 samples.

Results

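The genes described here encode the scaffold and B-type subunits of protein phosphatase 2A (PP2A) that had a row in the table of scaled counts used here. They are the scaffolds PPP2R1A and PPP2R1B, the B55 subunit PPP2R2D, the PPP2R3 family subunit PPP2R3C and the B56 subunits PPP2R5A, PPP2R5B, PPP2R5C and PPP2R5E. Rows were chosen by gene symbol, and each gene was read from its transcript row with the highest mean over the 5 libraries. All 8 were found, among 10576 genes in all.

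The study sequenced RNA from MDA-MB-231, an established human cell line from a triple-negative breast cancer, and its title names MYC, a transcription factor, as what PP2A inhibitors are antagonized to reach. Each of the 5 groups had 1 library, so conditions cannot be tested against each other, and the differences below lack any replicate check. The siNT library came from cells given a control siRNA for 48 hours. The siSET library came from cells given an siRNA against SET for 48 hours. The siCIP2A library came from cells given an siRNA against CIP2A, and its own treatment label names no time, although the general protocol gives 48 hours for both targets. The PBS library was a control of 12 hours, and the OP449 library had 1 µM of OP449, called a SET antagonist in the series, for 12 hours. Cells of all groups were grown in the same medium with serum, and cDNA was primed with oligo-dT and read on an Illumina GAII instrument.

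PP2A is a serine/threonine phosphatase built from a scaffold (A), a catalytic (C) and one exchangeable regulatory (B) subunit. The scaffold is a bent stack of helical repeats that holds the other subunits, and the B subunit selects the substrates and the place in the cell. SET and CIP2A are endogenous proteins that inhibit PP2A, and MYC is a substrate whose stability PP2A with a B56 subunit lowers. The catalytic subunits and the remaining members of the B55, PPP2R3 and B56 families, as well as SET, CIP2A and MYC, were not analysed here, so the siRNA labels were not checked against their targets.

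Over all genes the libraries held 3639530 recovered reads in siSET, the shallowest, to 5599350 in siCIP2A, the deepest. A value is in scaled counts, the deposited unit, in which 1 read was worth 1.10 to 1.71. The cells carried the mesenchymal markers of the line at high levels, with VIM at 15670 to 20866, CD44 at 13820 to 20560 and AXL at 15393 to 18128 scaled counts, and the keratins KRT8 at 3436 to 4793 and KRT18 at 2032 to 2965. The luminal marker PGR was at 0 in all 5 libraries, FOXA1 had at most 1 read, and CDH1 was at 12.9 to 56.7 scaled counts. Other luminal markers were present, with KRT19 at 4275 to 5998, ERBB2 at 1049 to 1179, GATA3 at 133 to 250 and ERBB3 at 95.2 to 160 scaled counts. PTPRC and CD3E of leukocytes had at most 2 and 1 reads. Of the fibroblast markers THY1 was at 0 and COL1A1 was at 73.7 to 162 scaled counts. At a count of 0 a level of up to 3 reads is allowed, or 3.31 to 5.13 scaled counts.

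Start regions are shown for PPP2R2D and PPP2R1B, the members whose levels differed most between libraries, and for PPP2R1A, the other scaffold. Each sequence is the 250 bases before the annotated start, 5′ to 3′ on the gene's strand, from RefSeq on GRCh38.p14. Capitals mark matches on either strand to 3 motifs. The cAMP response element is TGACGTCA on both strands. The CCAAT box has the letters of its name, which read ATTGG when it lies on the other strand. A GC box was taken as GGGCGG, and its match on the other strand reads CCGCCC. The windows are chr10:131900758-131901007 on the plus strand for PPP2R2D, chr11:111766390-111766639 on the minus strand for PPP2R1B and chr19:52189802-52190051 on the plus strand for PPP2R1A.
PPP2R2D: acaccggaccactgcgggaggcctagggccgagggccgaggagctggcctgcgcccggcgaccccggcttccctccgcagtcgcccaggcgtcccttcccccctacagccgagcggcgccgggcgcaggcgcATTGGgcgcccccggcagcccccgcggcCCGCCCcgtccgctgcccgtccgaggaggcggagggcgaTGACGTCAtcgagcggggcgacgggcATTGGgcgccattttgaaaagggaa
PPP2R1B: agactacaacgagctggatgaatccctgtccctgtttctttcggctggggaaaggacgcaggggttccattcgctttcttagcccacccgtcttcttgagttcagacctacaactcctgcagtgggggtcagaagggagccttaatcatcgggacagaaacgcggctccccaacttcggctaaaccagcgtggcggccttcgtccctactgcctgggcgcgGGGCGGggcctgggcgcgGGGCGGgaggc
PPP2R1A: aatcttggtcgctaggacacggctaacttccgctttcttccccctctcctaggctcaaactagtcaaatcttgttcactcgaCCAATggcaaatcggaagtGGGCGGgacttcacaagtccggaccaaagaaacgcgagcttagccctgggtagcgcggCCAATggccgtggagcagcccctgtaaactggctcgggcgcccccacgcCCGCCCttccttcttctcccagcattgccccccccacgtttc
PPP2R2D's region was the richest in G and C of these, at 76.0%, against 62.0% for PPP2R1B and 59.2% for PPP2R1A, and the median of all 35116 RefSeq windows was 58.0%. The 8 genes had 14 windows, since some have several starts, and motifs were searched on both strands over 300 bases, the 250 before and 50 after each start. The cAMP response element was in 1 of the 14, that of PPP2R2D, beginning 51 bases before the start, and in 1.85% of all windows. PPP2R1B's region held GC boxes beginning 29 and 11 bases before the start and no CCAAT box. The GC box was in 9 of 14 windows, covering all 8 genes, and in 44.95% of all windows, and the CCAAT box was in 7 of 14 and in 34.6%. The E-box CACGTG, the core motif bound by MYC with its partner MAX, was in 1 of 14 windows and in 7.26% of all windows. That window belongs to PPP2R3C, where the motif, in capitals here, begins at the third base after the start (chr14:35122280-35122307, minus strand).
PPP2R3C: aactcctgggtCACGTGgtgcgcacgcg
The TATA motif TATAAA was in 1 of 14 windows, that of the second PPP2R5A start, against 11.5% of all, and the ETS motif CCGGAAGT was in 0 of 14 against 4.14%. These matches describe letters in RefSeq windows, and the windows are those of current starts. The PPP2R2D row measured here spans 22092 bases and its matched GENCODE transcript 59191, a difference of 37099. So the PPP2R2D region shown, with its G and C content and motifs, need not lie at the start of the row measured.

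The levels of the 8 genes are plotted by library.

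**Figure D1:**
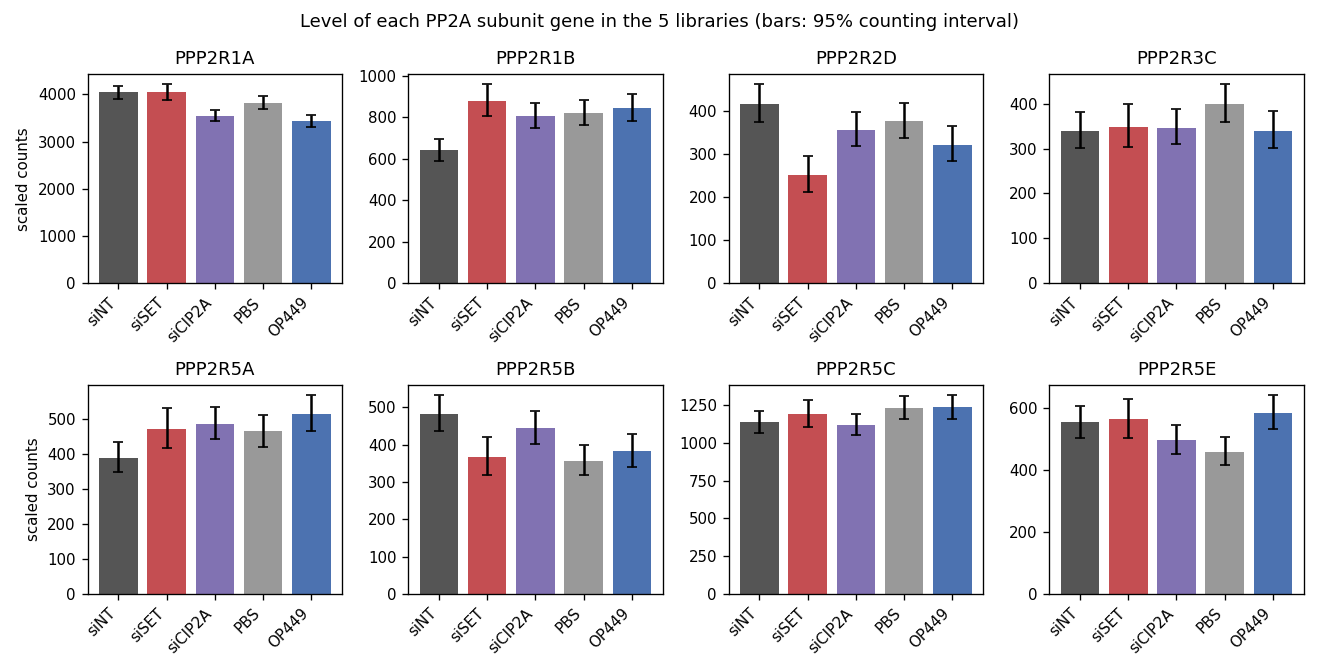
Scaled counts (y axis, from 0, a separate scale in each panel) of the 8 PP2A subunit genes in the siNT, siSET, siCIP2A, PBS and OP449 libraries (x axis). Bars are the value of 1 library each and the error bars are 95% counting intervals. PPP2R2D stands lowest in siSET at 251, and PPP2R1B lowest in siNT at 640.

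PPP2R1A, the main scaffold of most cells, lies at chr19:52693055-52729678 on the plus strand of hg19 and had 1 transcript row. Its level stood at 4039 scaled counts in siNT and 3824 in PBS, and at 4044 in siSET, 3550 in siCIP2A and 3437 in OP449. The siNT and siSET libraries were the highest and nearly equal, and OP449 was the lowest. Its log2 folds, taken on log2(scaled counts + 1), were 0.00 for siSET against siNT, -0.19 for siCIP2A against siNT and -0.15 for OP449 against PBS. The 95% exact counting intervals, given in brackets throughout, were [-0.07, 0.08], [-0.26, -0.12] and [-0.23, -0.08]. They cover counting error only and compare 2 libraries, not 2 conditions. The small deficits in siCIP2A and OP449 were thus larger than counting error, and the spread between cultures is not known.

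PPP2R1B, the second scaffold, lies at chr11:111608605-111637169 on the minus strand. It was measured at 640 scaled counts in siNT and 821 in PBS, and at 879 in siSET, 806 in siCIP2A and 844 in OP449. The siNT library stood apart as the lowest, while the other 4 lay within 806 to 879. PPP2R1B was thus 1.37-fold higher in siSET than in siNT (log2 fold 0.46 [0.28, 0.64]) and 1.26-fold higher in siCIP2A than in siNT (0.33 [0.17, 0.50]). It was also 1.28-fold lower in siNT than in the other control, PBS (-0.36 [-0.52, -0.20]). Against PBS, siSET was at 0.10 [-0.07, 0.26] and siCIP2A at -0.03 [-0.18, 0.12], and OP449 was at 0.04 [-0.11, 0.19]. The siSET and siCIP2A folds share the siNT library, so they are not independent of each other.

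The balance between the scaffolds can be read within a library, where the scale between libraries does not enter. PPP2R1B took 13.7% of the scaffold reads in siNT (95% exact binomial interval 12.6 to 14.8%), 17.9% in siSET (16.5 to 19.3%), 18.5% in siCIP2A (17.3 to 19.8%), 17.7% in PBS (16.5 to 18.9%) and 19.7% in OP449 (18.4 to 21.1%). The siNT interval overlapped none of the others. These shares use the PPP2R1B row with the highest mean, and intervals with its other rows were not calculated. In the row NM_181699 the siNT library stood apart by less, as given below. PPP2R1A had 6.31 reads per PPP2R1B read in siNT and 4.07 to 4.66 in the other libraries. The log2 change of the ratio PPP2R1B to PPP2R1A was 0.46 [0.27, 0.65] for siSET against siNT, 0.52 [0.34, 0.69] for siCIP2A against siNT and 0.19 [0.02, 0.36] for OP449 against PBS. These intervals are normal approximations on the log of the reads. For siNT against PBS the change was -0.44 [-0.61, -0.26], about as large and opposite in sign to the siRNA values that use siNT as control. The scaffold sum was 4281 scaled counts in OP449, the lowest, and 4923 in siSET, the highest.

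**Figure D2:**
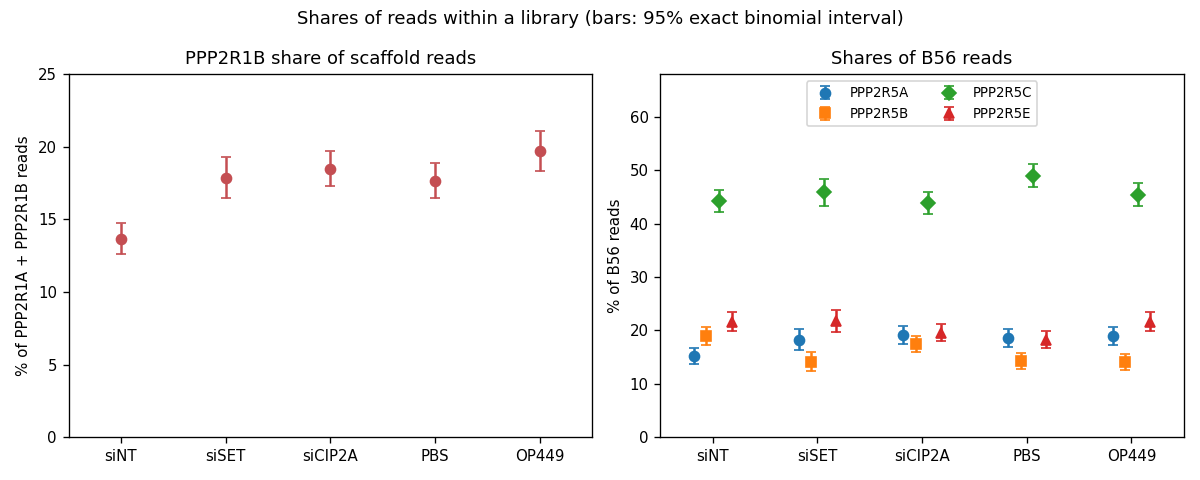
Left, PPP2R1B as a percentage of PPP2R1A and PPP2R1B reads (y axis) in each library (x axis). Right, each B56 gene as a percentage of the reads of PPP2R5A, PPP2R5B, PPP2R5C and PPP2R5E. Points are 1 library each and bars are 95% exact binomial intervals. With the row of the highest mean, the PPP2R1B share is 13.7% in siNT and 17.7 to 19.7% elsewhere.

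PPP2R1B had 5 transcript rows, which share reads, and their folds were not alike. The row used (NM_002716) and 2 others end at base 111608605, and their log2 folds for siSET against siNT were 0.46, 0.46 and 0.47. The rows NM_181699 and NM_181700 extend to base 111597632, and theirs were 0.25 [0.01, 0.49] and 0.26 [0.01, 0.52]. NM_181699 was read at 374 scaled counts in siNT and 427 in PBS, and at 445 in siSET, 391 in siCIP2A and 419 in OP449. The siNT library was the lowest in that row too, by less. Its reads were 58.5% of those of the row used in siNT and 48.5 to 52.1% in the other libraries. For siCIP2A against siNT the NM_181699 row was at 0.06 [-0.16, 0.29] and for siNT against PBS at -0.19 [-0.41, 0.03], so siNT differed less from the other libraries in this row than in the row used.

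**Figure D3:**
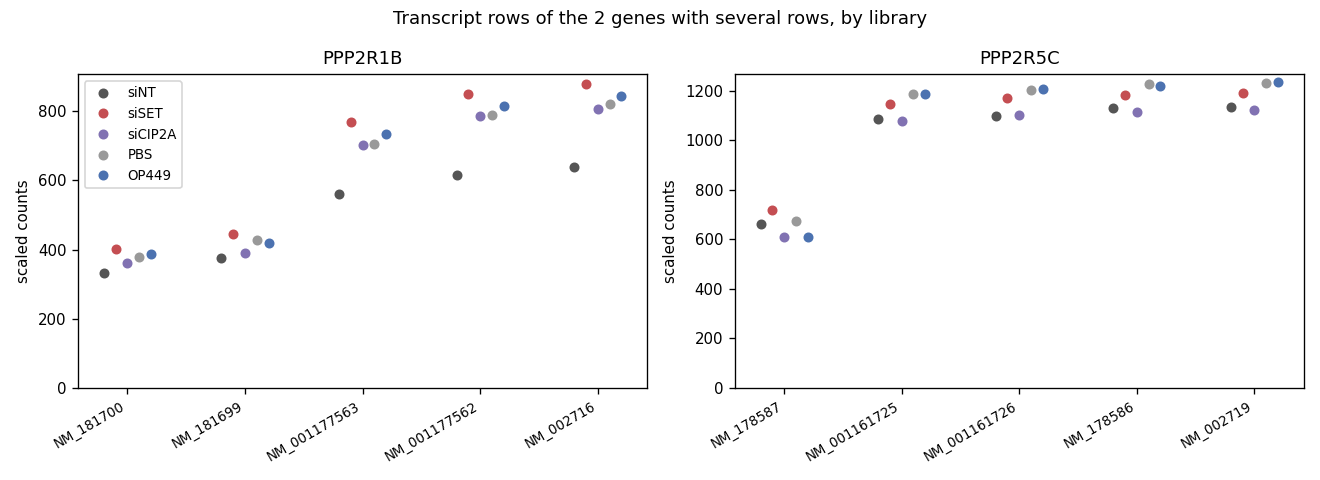
Scaled counts (y axis, from 0) of each transcript row (x axis) of PPP2R1B, left, and PPP2R5C, right, with 1 point per library in its colour. The siNT point of PPP2R1B lies apart from the others in the 3 rows with the nearer end, at 640 against 806 to 879 in NM_002716, and closer to them in NM_181699, at 374 against 391 to 445.

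PPP2R2D encodes B55 delta, a B55 subunit that acts at mitotic exit and is blocked in mitosis by the small proteins ENSA and ARPP19. Its row lies at chr10:133747960-133770051 on the plus strand. It was read at 415 scaled counts in siNT (counting interval 372 to 461), 251 in siSET (212 to 296), 356 in siCIP2A (318 to 397), 375 in PBS (336 to 418) and 321 in OP449 (282 to 363). The siSET library was the lowest, from 147 reads, and its interval overlapped only that of OP449. PPP2R2D was 1.65-fold lower in siSET than in siNT (log2 fold -0.72 [-1.01, -0.44]), the largest difference of any member in these comparisons. The siSET library was also lower than siCIP2A (-0.50 [-0.79, -0.21]), PBS (-0.58 [-0.87, -0.29]) and OP449 (-0.35 [-0.66, -0.05]). So for this gene the siSET value did not rest on which control was used. The siCIP2A library was at -0.22 [-0.45, 0.00] against siNT and OP449 at -0.23 [-0.47, 0.02] against PBS. The siSET library was also the shallowest of the 5, and the part of depth in this result was not tested.

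Per read of the scaffold PPP2R1A, PPP2R2D changed by -0.72 [-1.01, -0.44] between siSET and siNT, the same as its own fold, since PPP2R1A was level there. The genes whose profile over the 5 libraries was nearest to that of PPP2R2D, among 6082 genes with a mean of at least 50 scaled counts, were ICAM1, UBE2Q2 and ERLEC1. ICAM1, an adhesion molecule of inflamed cells, was at 2970 scaled counts in siNT and 2694 in PBS, and at 1914 in siSET, 2564 in siCIP2A and 2502 in OP449. The root mean square distance between centred log2 profiles was 0.050 for ICAM1, 0.065 for UBE2Q2 and 0.070 for ERLEC1, against 0.25 for PPP2R2D's own spread. For PPP2R1B, whose own spread was 0.16, the nearest were MIF4GD and FAM98A at 0.022 and SCYL3 at 0.024. With 5 libraries such likeness is a description of the profiles and says nothing of shared control.

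PPP2R3C belongs to the PPP2R3 family of B-type subunits and lies at chr14:35554679-35591519 on the minus strand. Its level stood at 339 scaled counts in siNT and 399 in PBS, and at 349 in siSET, 347 in siCIP2A and 340 in OP449. The PBS library was the highest, and the other 4 lay between 339 and 349. Its log2 folds were 0.04 [-0.22, 0.31] for siSET and 0.03 [-0.20, 0.27] for siCIP2A against siNT, and -0.23 [-0.47, 0.00] for OP449 against PBS. The siNT library was at -0.23 [-0.47, -0.01] against PBS, so the 2 folds that use PBS had the same size.

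The B56 subunits direct PP2A to a range of signalling proteins, and each of the 4 here is a separate gene. PPP2R5A, B56 alpha, is the subunit tied to turnover of MYC and lies at chr1:212458879-212535204 on the plus strand. It was measured at 390 scaled counts in siNT and 465 in PBS, and at 472 in siSET, 487 in siCIP2A and 515 in OP449. The siNT library was the lowest and OP449 the highest. Its log2 folds were 0.28 [0.04, 0.51] for siSET and 0.32 [0.11, 0.53] for siCIP2A against siNT, and 0.15 [-0.05, 0.35] for OP449 against PBS. The siCIP2A value, 0.3199, lay just under the threshold of 0.3219 used for counts below, and siNT was itself at -0.25 [-0.47, -0.04] against PBS.

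PPP2R5B, B56 beta, lies at chr11:64692143-64701948 on the plus strand, where its last 4 bases overlap GPHA2 on the other strand, a gene with a mean of 0.221 scaled counts. It was read at 484 scaled counts in siNT and 357 in PBS, and at 368 in siSET, 444 in siCIP2A and 383 in OP449. The siNT and siCIP2A libraries were high and the other 3 lay within 357 to 383. PPP2R5B was 1.31-fold lower in siSET than in siNT (log2 fold -0.39 [-0.64, -0.15]), while siCIP2A was at -0.12 [-0.33, 0.08]. Between the controls it was 1.35-fold higher in siNT (0.44 [0.22, 0.65]), while siSET against PBS was at 0.04 [-0.21, 0.30] and siCIP2A against PBS at 0.31 [0.10, 0.53], above 0 where its value against siNT was below. OP449 against PBS was at 0.10 [-0.13, 0.33].

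PPP2R5C, B56 gamma, lies at chr14:102276140-102394326 on the plus strand. Its level stood at 1134 scaled counts in siNT and 1231 in PBS, and at 1192 in siSET, 1120 in siCIP2A and 1234 in OP449. These values spanned a log2 range of 0.14, the narrowest of the members. Its log2 folds were 0.07 [-0.07, 0.21] for siSET and -0.02 [-0.15, 0.11] for siCIP2A against siNT, and 0.00 [-0.12, 0.13] for OP449 against PBS, all with 0 inside the interval. Of its 5 transcript rows, NM_178587 ends earlier, at base 102378960, and was read at 662 scaled counts in siNT and 673 in PBS, and at 717 in siSET, 611 in siCIP2A and 609 in OP449. In that row siSET was the highest, and the fold for OP449 against PBS was -0.14 [-0.32, 0.03]. Its reads were 60.1% of those of the row used in siSET, the most, and 49.4% in OP449, the least.

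PPP2R5E, B56 epsilon, lies at chr14:63841355-64010079 on the minus strand. It was measured at 555 scaled counts in siNT and 459 in PBS, and at 565 in siSET, 498 in siCIP2A and 586 in OP449. The PBS library was the lowest. PPP2R5E was 1.28-fold higher in OP449 than in PBS (log2 fold 0.35 [0.16, 0.55]), the only member past the threshold in that comparison. The siNT library was at 0.27 [0.08, 0.47] and siSET at 0.30 [0.08, 0.51] against the same PBS library, so that PBS was below each of these. The siCIP2A library was at 0.12 [-0.08, 0.31] against PBS, with 0 inside the interval. For siSET and siCIP2A against siNT its log2 folds were 0.03 [-0.18, 0.23] and -0.16 [-0.35, 0.03].

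Of the B56 reads, which are not divided by length here, PPP2R5C held 43.9 to 49.0%. PPP2R5A held 15.2% (13.7 to 16.8%) in siNT and 18.2 to 19.1% in the other 4 libraries. PPP2R5B held 18.9% in siNT and 17.4% in siCIP2A, against 14.1 to 14.2% in siSET, PBS and OP449. PPP2R5E held 18.3% in PBS and up to 21.7% in siSET. The siNT library thus had the lowest PPP2R5A share and the highest PPP2R5B share. The log2 change of the ratio PPP2R5A to PPP2R5B was 0.67 [0.34, 1.00] for siSET and 0.44 [0.16, 0.73] for siCIP2A against siNT, 0.05 [-0.25, 0.35] for OP449 against PBS and -0.69 [-0.99, -0.39] for siNT against PBS. The summed level of the 4 genes, by contrast, lay between 2512 scaled counts in PBS and 2718 in OP449.

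Levels were compared between genes per length, which was possible where the length of a matching transcript was known. This takes reads to grow with transcript length, which was not tested for this cDNA primed with oligo-dT. The order below depends on it. In scaled counts per 1000 bases, PPP2R1A was the highest of the 6 genes with a length at 639 to 752 with a transcript of 5380 bases, or at 1370 to 1612 if the part that extends past the row is left out (2509 bases). PPP2R5C followed at 259 to 285 and PPP2R3C at 184 to 217, and neither range overlapped the next. PPP2R5A at 125 to 165, PPP2R5B at 130 to 176 and PPP2R1B at 115 to 157 overlapped over the libraries and had no order among themselves. No length was used for PPP2R2D and PPP2R5E.

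**Figure D4:**
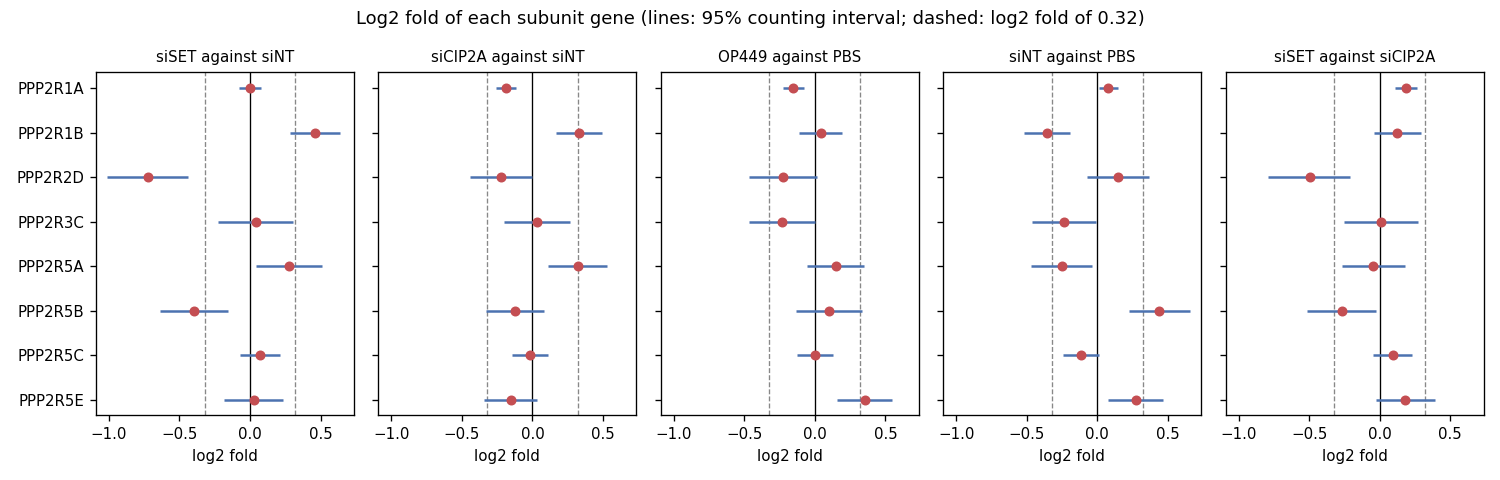
Log2 fold (x axis) of each of the 8 genes in 5 comparisons of 2 libraries, with 95% counting intervals as lines, a solid line at 0 and dashed lines at a log2 fold of 0.32 in either direction. PPP2R2D lies at -0.72 in siSET against siNT and PPP2R5E at 0.35 in OP449 against PBS.

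A member was counted as higher or lower where its log2 fold was at least 0.32 in size. The counts were set beside the same count over all genes with a mean of at least 50 scaled counts in the 2 libraries, a floor that all 8 members passed. When SET was targeted (siSET against siNT), 1 of 8 was higher, PPP2R1B, where 11.9% of 6081 genes were, and 2 of 8 were lower, PPP2R2D and PPP2R5B, where 12.9% were. The median log2 fold was 0.03 over the members and 0.01 over all genes. When CIP2A was targeted (siCIP2A against siNT), 1 of 8 was higher, PPP2R1B, where 11.9% of 6099 genes were, and 0 of 8 were lower, where 10.1% were, with medians of -0.07 and 0.02. For OP449 against PBS, 1 of 8 was higher, PPP2R5E, where 9.93% of 6093 genes were, and 0 of 8 were lower, where 8.14% were. The medians were 0.02 for the members and 0.02 for all genes. With 8 genes, 1 member more or less is a large share, and nothing is read from these counts about the members as a group.

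The 2 controls and the 2 siRNA libraries were compared in the same way. The siNT and PBS cells differed in time and in what they were given, which cannot be told apart here. For siNT against PBS, 1 of 8 was higher, PPP2R5B, where 8.28% of 6073 genes were, and 1 of 8 was lower, PPP2R1B, where 8.46% were. The median log2 fold was -0.020 over the members and -0.0042 over all genes. For siSET against siCIP2A, 0 of 8 were higher, where 12% of 6094 genes were, and 1 of 8 was lower, PPP2R2D, where 14.7% were, with medians of 0.050 and -0.0085. The siNT library held the lowest or highest value of 5 members, PPP2R1B, PPP2R3C and PPP2R5A at the low end and PPP2R2D and PPP2R5B at the high end. Over all 6090 genes it held an extreme in 36.1%. The siSET library held an extreme in 3 of 8 members and in 46.1% of all genes.

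**Figure D5:**
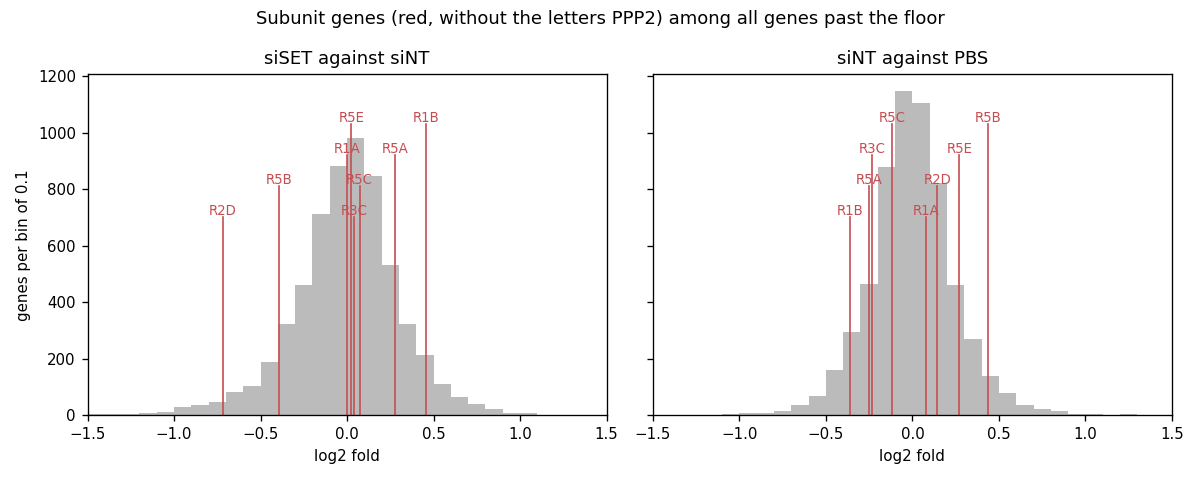
Distribution of the log2 folds (x axis) of all genes past the floor, as genes per bin (y axis, grey), for siSET against siNT and siNT against PBS. Red lines mark the subunit genes at their log2 fold, with heights that only separate the labels. Most members lie in the bulk of the distribution, and PPP2R2D lies to its left in siSET against siNT, where 2.47% of genes were lower.

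Over all 5 libraries, the members' log2 range had a median of 0.38, from 0.14 for PPP2R5C to 0.72 for PPP2R2D. Over the 3543 genes within the members' range of mean levels the median was 0.36. PPP2R2D had a wider range than 91.1% of these and PPP2R5C a wider range than 4.3%. PPP2R2D has the lowest mean of the members, 344 scaled counts, so none of these genes has a lower one. Counting error is larger at lower counts, and its part in this rank was not tested. The others lay between, with PPP2R1B above 68.7%, PPP2R5B above 65.4%, PPP2R5A above 58.5% and PPP2R5E above 49.5%, and PPP2R1A and PPP2R3C at 21.7% and 21.8%.

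Genes that act on the same holoenzyme were counted from lists chosen by function. Over all genes past the floor, 11.9% were higher and 12.9% lower in siSET against siNT, and 11.9% and 10.1% in siCIP2A against siNT. For OP449 against PBS these shares were 9.93% and 8.14%, and for siNT against PBS 8.28% and 8.46%. The lists are small, and nothing is read from their counts about a list as a group. Of 3 genes for methylation and activation of PP2A, 1 was higher in siSET than in siNT, LCMT1, the methyltransferase that modifies the catalytic subunit (log2 fold 0.53 [0.18, 0.88]). LCMT1 was at 166 scaled counts in siNT and 239 in PBS, and at 239 in siSET, 215 in siCIP2A and 223 in OP449, with siNT lowest as for PPP2R1B. It was also the 1 gene of the list past the threshold in siCIP2A against siNT, and higher there (0.37 [0.06, 0.70]), and the 1 lower in siNT than in PBS (-0.52 [-0.85, -0.21]). PPME1, the methylesterase that removes this mark, was the 1 of 3 lower in OP449 than in PBS, at 1031 against 1300 scaled counts (-0.33 [-0.47, -0.20]).

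Of 5 PP2A inhibitor genes past the floor, 1 was lower in siSET and in siCIP2A than in siNT, ANP32E, an acidic nuclear protein of the ANP32 family, and none was higher. ANP32E was at 2360 scaled counts in siNT and 2553 in PBS, and at 1192 in siSET, 1615 in siCIP2A and 2766 in OP449. Both siRNA libraries lay below both controls, with log2 folds against siNT of -0.98 [-1.11, -0.86] and -0.55 [-0.64, -0.45]. ENSA, the inhibitor of B55 complexes, was at 1318 in siNT and 1587 in siSET (0.27 [0.14, 0.40]), and MASTL, the kinase that activates ENSA, at 870 and 990 (0.19 [0.03, 0.35]), both under the threshold. In OP449 against PBS none of the 5 was past the threshold.

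The striatins are a further B-type family that assembles the STRIPAK complex, and 8 genes of that complex were measured. In siSET against siNT 1 was higher, STRN, and 0 were lower, and in siCIP2A against siNT 0 were higher and 1 was lower, STRN3. In OP449 against PBS 1 was higher, STRN, at 377 against 265 scaled counts (log2 fold 0.51 [0.26, 0.76]). STRN was at 250 in siNT, 265 in PBS and 356 in siSET. STRN3 was at 485 in siNT, 379 in PBS and 314 in siCIP2A (-0.63 [-0.85, -0.41] against siNT). Of 9 genes of the Integrator complex, which recruits PP2A to transcription sites, 2 were higher in siSET than in siNT, INTS5 (0.47 [0.27, 0.67]) and INTS4 (0.32 [0.03, 0.62]). In siCIP2A against siNT 1 was higher, INTS2, and 1 lower, INTS6, and in OP449 against PBS 1 was higher, INTS5, and 1 lower, INTS3. INTS4 was at 242 scaled counts in siNT, 285 in PBS and 303 in siSET, and INTS5 at 491, 543 and 679. INTS6 was at 337 in siNT, 271 in PBS and 265 in siCIP2A, and INTS2 at 424, 424 and 560. So INTS4 and INTS6 lay closer to PBS than to siNT.

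Of 17 genes for PP2A substrates and partners, 1 was higher and 1 lower in siSET than in siNT, RACGAP1 (log2 fold 0.33 [0.21, 0.46]) and ARHGEF2 (-0.53 [-0.67, -0.38]). RACGAP1 was at 1402 scaled counts in siNT, 1767 in siSET and 1862 in PBS, so siSET lay below the other control. It was lower in siNT than in PBS (-0.41 [-0.52, -0.30]). ARHGEF2 was at 985 in siSET, below both siNT at 1419 and PBS at 1411. In siCIP2A against siNT 0 of the 17 were higher and 2 were lower, among them BAD, a promoter of cell death (-0.47 [-0.61, -0.34]). In OP449 against PBS 0 were higher and 2 were lower, among them the adaptor SHC1, at 1797 against 2260 scaled counts (-0.33 [-0.43, -0.23]). The median log2 folds of the list were 0.04, -0.10 and -0.04, beside 0.01, 0.02 and 0.02 over all genes. A difference in RNA says nothing of the phosphorylation of these proteins, which was not measured.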

How the data were processed

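RNA of 5 libraries was compared, 1 per group, with groups from the sample labels and columns matched by name. For every RefSeq transcript the authors deposited a signal already scaled between libraries, and the text calls its unit scaled counts. Per the submitters' processing notes CASAVA, Bowtie 1.0.0 and the build hg19 were used. The step each served, how reads were counted, whether by strand, and how they were scaled are not given in those notes or the labels. Whole reads were recovered, since 100% of the values in every library came out as whole multiples of 1 read within 0.001 reads. The table held 16383 rows, of which 15739 had a current symbol, and the row with the highest mean stood for each of 10576 genes. Other rows and genes were not analysed here.

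Log2 folds used a pseudocount of 1 scaled count, which understates folds of low genes. Counting intervals are 95% exact Clopper-Pearson intervals on recovered reads; reads carry no molecular identifiers. Counts used a floor of 50 scaled counts and a log2 fold of at least 0.32 in size. Shares within a family are of reads, although a share per length had been planned. The reason was that PPP2R5E had no matched transcript and that of PPP2R1A differed from its row in span. Lengths came from GENCODE transcripts matched by accession with a genomic span within 150 bases, which left out PPP2R2D. An exception was made for PPP2R1A, whose span differed by 2871 bases and which was given 5380 or 2509 bases. As an alternative, recovered reads were put to an exact binomial test, adjusted by Benjamini-Hochberg at 0.05 over all genes. It called 1732 of 8150 genes for siSET against siNT, 1965 of 8217 for siCIP2A against siNT, 1558 of 8124 for OP449 against PBS, 1492 of 8184 for siNT against PBS and 1981 of 8151 for siSET against siCIP2A, and it compares libraries, not conditions.

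The members, the 8 gene lists and the thresholds were chosen with earlier results of these data known. Named genes were the members, up to 3 genes per list and comparison with the largest absolute log2 fold past the floor, and the 3 genes nearest in profile to each of the 2 members with the widest range. A few genes that these rules or lists select are not reported here. The lists were the catalytic subunits with the remaining B55, PPP2R3 and B56 genes, of which 0 were in the table, methylation and activation, inhibitors, STRIPAK, PP4 and PP6, PP1, Integrator, and substrates and partners. Scripts ran in Python 3.11.15 with pandas 2.3.3, numpy 2.4.6, scipy 1.17.1 and matplotlib 3.10.9, and were tested on simulated data. The simulated reads had counting error only, without a spread between cultures, and the changed genes had larger folds than any member. That test does not bear on folds as small as those of the members.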

Additional observations from a re-analysis of the deposited data

How the results depend on the processing

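The number of members past the threshold was 3 for siSET against siNT, 1 for siCIP2A against siNT, 1 for OP449 against PBS, 2 for siNT against PBS and 1 for siSET against siCIP2A. At a fold of 1.5 these became 1, 0, 0, 0 and 0, and at a fold of 2 they became 0 in each. The share of all genes past these folds, and under the other settings below, is not given here, except for the binomial test. Nothing is read from these counts about the members as a group. For siCIP2A against siNT, where PPP2R1B lay just past the threshold and PPP2R5A just under it, the count was 0 after median-of-ratios scaling, 2 with equal totals, 0 with the sum of the transcript rows, 0 with the row of the lowest mean, and 3 by the binomial test (PPP2R1A, PPP2R1B and PPP2R5A). For siNT against PBS it was 1 with the sum of the rows and 1 with the row of the lowest mean, and 3 by the binomial test. For siSET against siNT it was 2 with the row of the lowest mean, where PPP2R1B was at 0.26. By the binomial test it was 2 for OP449 against PBS and 2 for siSET against siCIP2A. That test called 21.3% of all genes tested for siSET against siNT, 23.9% for siCIP2A against siNT and 19.2% for OP449 against PBS. The shares were 18.2% for siNT against PBS and 24.3% for siSET against siCIP2A. With PBS in place of siNT as control, siSET had 1 member past the threshold and siCIP2A had 0. Of the 16 member folds against siNT, 7 changed sign against PBS. Of those past the threshold these were PPP2R5B in siSET, at 0.043, and PPP2R1B in siCIP2A, at -0.026. The others were PPP2R3C and PPP2R5C in siSET, at -0.19 and -0.046, and PPP2R3C, PPP2R5B and PPP2R5E in siCIP2A, at -0.20, 0.31 and 0.12. In all, 6 of the 16 stayed within their counting interval. The same counts over all genes are not given here. The cause of the sign changes was not tested.

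All 40 member folds stayed within their own counting interval under the 3 other scalings and a pseudocount of 10. With the row of the lowest mean 36 of 40 did, but members with 1 transcript row could not change there. Only PPP2R1B and PPP2R5C, with 5 rows each, could, and 4 of their folds left the interval. These were PPP2R1B in siSET and siCIP2A against siNT and in siNT against PBS, and PPP2R5C in OP449 against PBS. Per length in place of reads, with 5380 bases for PPP2R1A, PPP2R1B was 13.2% of the scaffolds in siNT and 17.1 to 19.1% in the other libraries. Between these shares and shares of reads, with PPP2R5E left out, 10 scaffold shares stayed the same and 15 B56 shares moved. The scaffold result holds for 5380 bases only, a length close to the 5587 bases of PPP2R1B. With 2509 bases, PPP2R1A stood at 1370 to 1612 per length in place of 639 to 752. The PPP2R1B shares are then smaller, and they were not calculated. In siNT, PPP2R5C was 46.6% per length and 56.5% of reads, and PPP2R5B 31.3% and 24.1%. With all transcript rows summed, which counts shared reads more than once, 25 of 25 family shares moved, and PPP2R1B was at 37.5% in siNT and 44.0% in PBS. For siSET against siNT, the counting interval was [-1.01, -0.44] for PPP2R2D, the member with the lowest mean, and [-0.07, 0.08] for PPP2R1A. What varies between cultures was not measured. No paired analysis was possible because each group has 1 library.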

Other observations

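Among the phosphatases related to PP2A, PPP6R3, a regulatory subunit of PP6, was at 1224 scaled counts in siNT and 2458 in PBS, and at 2465 in siSET, 1995 in siCIP2A and 2604 in OP449. The siNT library was the lowest, with a log2 fold against PBS of -1.005 [-1.11, -0.90], as it was for PPP2R1B by less. The siCIP2A library was next, with siSET at 0.30 [0.20, 0.41] against it. ANKRD52, a PP6 subunit, was at 2200 in siNT and 3286 in siSET (0.58 [0.49, 0.67]). By the threshold used for the subunits, 2 of 8 measured PP4 and PP6 genes were higher and 1 lower in siSET than in siNT, 1 was higher in siCIP2A than in siNT, and 1 was higher and 1 lower in OP449 than in PBS. Over all genes past the floor, 11.9% were higher and 12.9% lower in siSET against siNT, and 11.9% and 10.1% in siCIP2A against siNT. For OP449 against PBS these shares were 9.93% and 8.14%. Nothing is read from these counts, or from those of PP1 below, about a list as a group.

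PPP1R15A, also called GADD34, which brings PP1 to the translation factor eIF2 in stressed cells, was at 2328 scaled counts in siNT and 2156 in PBS, and at 1305 in siSET, 3613 in siCIP2A and 3249 in OP449. It was lower in siSET than in siNT (log2 fold -0.83 [-0.96, -0.71]) and higher in siCIP2A than in siNT (0.63 [0.55, 0.72]) and in OP449 than in PBS (0.59 [0.51, 0.68]). The siRNA libraries differed from each other by -1.47 [-1.58, -1.35]. Of 12 measured PP1 genes 1 was higher and 2 lower in siSET than in siNT, 2 were higher in siCIP2A than in siNT, and 1 was higher in OP449 than in PBS.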
